A study of Caenorhabditis briggsae with 6 samples.

Results

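Messenger RNAs of the nematode germline and early embryo are controlled largely by proteins that bind them, and 4 genes for such proteins, Cbr-nos-1, Cbr-gld-1, Cbr-cey-2.1 and Cbr-pos-1, were followed here in larvae of Caenorhabditis briggsae that carry a mutation in Cbr-ivph-3. The eggshell gene Cbr-cbd-1.2 was followed beside them as a contrast. The 5 genes are a choice out of the 23169 genes in the count table, and they were picked by name with their difference between the genotypes already known, so their values are given as a description and without p-values. Cbr-ivph-3 encodes a LIN-15B-domain protein, and loss of its function gives animals with a Multivulva phenotype. RNA was sequenced from whole L3 hermaphrodites raised at 20 °C, and each genotype was sampled 3 times independently. The mutant was strain PS9217, which carries Cbr-ivph-3(sy5216), and the wild type was strain AF16. Both were synchronized by bleaching and collected when a few animals showed vulval precursor cells at their first division, and an allele of a single strain stands for the mutant.

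In C. elegans, germ cells go through mitosis, meiosis and gamete formation with much of the control placed on the translation and stability of transcripts that are already made. Nanos, STAR/KH, Y-box and CCCH zinc finger proteins are major families of such regulators, and many of them bind the untranslated ends of their targets. At the L3 stage the gonad is still growing, and oocytes and embryos are made later. A whole-larva sample holds somatic and germ cells together, so more cells of a type and more RNA per cell cannot be told apart in any value below.

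The libraries held between 22817581 and 30865944 counts in the mutant and between 24625819 and 25760385 in AF16. Levels are given as CPM, edgeR's unit for counts relative to library size, here after scaling by the trimmed mean of M-values (TMM), and 1 count was worth 0.0280 to 0.0373 CPM in the mutant and 0.0438 to 0.0446 CPM in AF16. Mutant replicate 1 stood apart from the other mutant libraries. Of 14241 tested genes, 2272 (15.95%) lay more than 2-fold apart between mutant replicates 1 and 2 and 2303 (16.2%) between replicates 1 and 3. Only 1 gene lay that far apart between replicates 2 and 3, and 37 to 115 genes did so between pairs of AF16 libraries. The counts of mutant replicates 2 and 3 still differed by more than sampling noise, with a median chi-square per gene of 0.829 where counting alone gives 0.455. Between pairs of AF16 libraries that median was 1.44 to 3.28. Replicates 2 and 3 were kept as separate samples, as the study describes them, and their independence was not tested. Cbr-ivph-3 itself was lower in the mutant (21.0, 20.9 and 20.9 CPM, against 36.5, 34.5 and 33.01 CPM in AF16, edgeR adjusted p = 0.00565, or 0.0577 with library totals), a weak check of the labels because the allele is a premature stop and the gene is still transcribed. Sperm and yolk genes also set mutant replicate 1 apart. The summed level of 6 matched sperm genes was 79.2, 35.8 and 35.3 CPM in mutant replicates 1, 2 and 3, against 27.5, 30.7 and 26.97 CPM in AF16. Cbr-spe-5 carried most of this sum, and the other 5 genes together were at 20.4, 0.933 and 0.952 CPM in the mutant replicates, against 1.87, 1.12 and 0.919 CPM in AF16, so that replicate 1 was above AF16 and replicates 2 and 3 were near it. Among the 6, Cbr-spe-27 was at 0 in all libraries except mutant replicate 1. The yolk protein gene Cbr-vit-6 was at 56.4, 1.16 and 1.74 CPM in the mutant replicates, against 4.94, 4.73 and 6.44 CPM in AF16. All 7 matched markers of somatic tissues were detected in every library, at 14.3 to 2047 CPM, and their summed level was 2879, 1847 and 1946 CPM in the mutant replicates, against 4231, 4856 and 4444 CPM in AF16. The sum was lower in every mutant library, and 0 of the 7 were called higher, 4 were called lower and 3 did not pass (log2 fold changes of -1.51 to 0.00). Over all tested genes 11.7% were called higher and 9.80% lower. The 5 markers below AF16 in every mutant library could be named only because the study had called them in this comparison, so their direction is not independent evidence. What part the differences in sperm, yolk and somatic genes have in the levels below was not tested. Each mutant library is shown apart below.

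The 4 RNA-binding genes were more abundant in each mutant library than in any AF16 library, while Cbr-cbd-1.2 was above AF16 in mutant replicate 1 and below it in replicates 2 and 3. In the edgeR fit over all genes, 4 of the 4 RNA-binding genes were called higher, where 11.7% of all tested genes were called higher, and Cbr-cbd-1.2 was not called. All 5 genes passed the filter on low counts. When AF16 replicate 1, 2 or 3 was left out, 3 of the 4 were called and Cbr-pos-1 was not (log2 fold changes of 1.40, 1.37 and 1.25), and without mutant replicate 1 Cbr-cbd-1.2 was called lower. All 3 mutant libraries lay above all 3 AF16 libraries for 22.2% of tested genes. Taken singly, mutant replicates 1, 2 and 3 lay above all AF16 libraries for 41.2%, 43.2% and 43.2% of tested genes and below them for 39.9%, 37.7% and 37.6%. Calls in the lower direction were made for 9.80%. Because the genes were chosen on this contrast, nothing is read from their calls or from these shares.

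**Figure D1:**
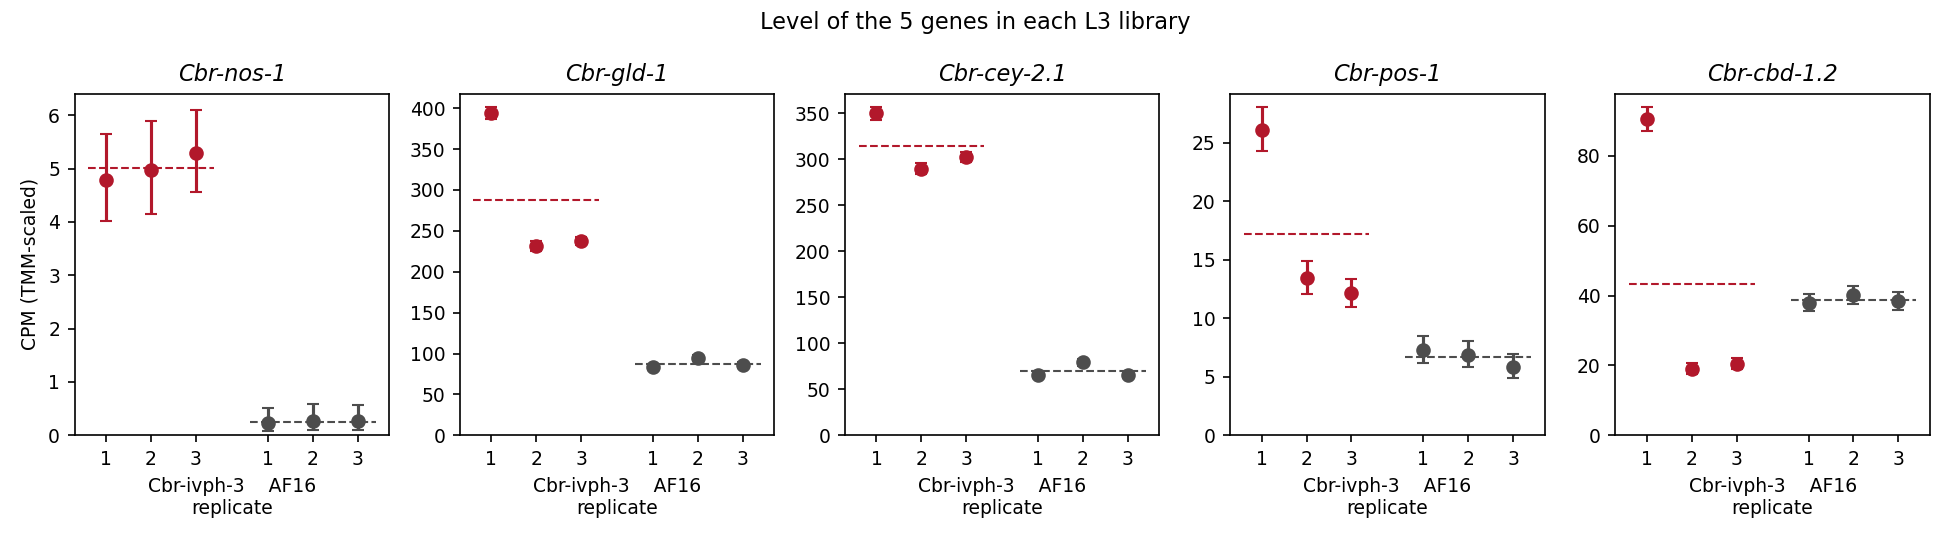
Level of each of the 5 genes in each library, in TMM-scaled CPM on linear axes from 0, with Cbr-ivph-3 replicates 1 to 3 in red and AF16 replicates 1 to 3 in grey; dashed lines are group means and bars are exact Poisson 95% intervals, which cover counting error only. Cbr-nos-1 is at 4.78 to 5.29 CPM in the mutant libraries and at 0.222 to 0.268 CPM in AF16, and Cbr-cbd-1.2 has mutant libraries on both sides of AF16.

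Cbr-nos-1 (WBGene00039817) belongs to the Nanos family of zinc finger proteins, which in C. elegans act with PUF proteins and are needed for germ cells to survive and develop. It was read by 138, 133 and 189 fragments in mutant replicates 1, 2 and 3, against 5, 6 and 6 fragments in AF16 replicates 1, 2 and 3. In CPM its level was 4.78, 4.96 and 5.29 in the mutant replicates, against 0.222, 0.268 and 0.263 in AF16. The mutant libraries were all far above the AF16 libraries and close to each other, with no overlap between genotypes. The mean was 5.01 ± 0.262 CPM in the mutant and 0.251 ± 0.0249 CPM in AF16 (SD, n = 3 each), and the fitted log2 fold change, mutant over AF16, was 4.29 (standard error 0.23). Only 0.393% of tested genes had a fold change as high or higher. The AF16 level rests on 17 fragments over 3 libraries. With 460 fragments in the mutant, the ratio of the pooled scaled counts was 20.1 with an exact 95% interval of 12.4 to 34.7, which covers counting error only. The standard error of 0.23 was derived from the test statistic. It implies a narrower range than this interval, so it does not measure how precisely the ratio is known.

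Cbr-nos-1 was the member with the least spread among the mutant libraries. Each library's level was 19.04-, 19.8- and 21.1-fold the AF16 mean for mutant replicates 1, 2 and 3, and replicate 1 differed from the mean of replicates 2 and 3 by -0.10 on the log2 scale. In the RefSeq annotation the span of Cbr-nos-1 overlaps that of the adjoining gene CBG20912 (WBGene00039816), and fragments in the shared stretch could be assigned to either gene or to none. CBG20912 had 21, 30 and 45 fragments in the mutant replicates and 0 in each AF16 library, which puts it at least 23.7-fold higher in the mutant, taking a limit of 3 fragments over the 3 AF16 libraries. Both genes of the pair were therefore high in the same 3 libraries, and whether they share fragments was not tested.

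Cbr-gld-1 (WBGene00023713) encodes a STAR/KH-domain protein, which in C. elegans represses the translation of many maternal transcripts while germ cells pass through meiotic prophase. Its level was 394, 231 and 238 CPM in mutant replicates 1, 2 and 3, against 83.3, 94.3 and 85.5 CPM in AF16 replicates 1, 2 and 3. All mutant libraries were above all AF16 libraries, and mutant replicate 1 was above the other mutant libraries by more than any distance among the AF16 libraries. The mean was 288 ± 92.3 CPM in the mutant and 87.7 ± 5.87 CPM in AF16 (SD, n = 3 each), with a fitted log2 fold change of 1.72 (standard error 0.23). Against the AF16 mean the mutant replicates stood at 4.50-, 2.64- and 2.71-fold. Fold changes this high or higher were found in 3.90% of tested genes.

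Cbr-cey-2.1 (WBGene00025320) encodes a Y-box protein with a cold shock domain, a family that in C. elegans is abundant in germline messenger ribonucleoproteins. It was at 349.7, 289.7 and 302 CPM in mutant replicates 1, 2 and 3, against 66.0, 79.3 and 65.8 CPM in AF16 replicates 1, 2 and 3. The genotypes did not overlap, and the mutant libraries lay closer to each other than they did for Cbr-gld-1. The mean was 314 ± 31.6 CPM in the mutant and 70.4 ± 7.75 CPM in AF16 (SD, n = 3 each), with a fitted log2 fold change of 2.16 (standard error 0.15), and the mutant replicates stood at 4.97-, 4.12- and 4.30-fold the AF16 mean. A fold change this high or higher was seen in 2.47% of tested genes.

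The gene has a paralogue, Cbr-cey-2.2 (WBGene00032931), whose libraries overlapped between genotypes. Cbr-cey-2.2 was at 71.4, 47.9 and 48.5 CPM in the mutant replicates, against 46.6, 50.6 and 46.0 CPM in AF16. Mutant replicate 1 was above AF16 and the other mutant libraries lay within the AF16 range. Its log2 fold change was 0.23 (standard error 0.18), which did not pass (adjusted p = 0.419, edgeR's quasi-likelihood test with Benjamini-Hochberg adjustment), except when libraries were scaled by their totals (0.53, adjusted p = 0.0392, where the median of all tested genes was 0.37). The ratio of Cbr-cey-2.1 to Cbr-cey-2.2 fragments, into which library scaling does not enter, was 4.90, 6.05 and 6.23 in the mutant replicates, against 1.42, 1.57 and 1.43 in AF16. All mutant ratios were above all AF16 ratios, and the ratio was lowest in mutant replicate 1 among the mutant libraries. How the counting divided fragments that could come from either copy was not tested.

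Cbr-pos-1 (WBGene00032403) encodes a CCCH zinc finger protein, which in C. elegans is made from maternal transcript in the early embryo and controls maternal messenger RNAs in its posterior cells. It had 26.1, 13.4 and 12.1 CPM in mutant replicates 1, 2 and 3, against 7.29, 6.87 and 5.87 CPM in AF16 replicates 1, 2 and 3. Every mutant library was above every AF16 library, but replicate 1 held about as much as the other mutant libraries together. The mean was 17.2 ± 7.74 CPM in the mutant and 6.68 ± 0.733 CPM in AF16 (SD, n = 3 each), with a fitted log2 fold change of 1.37 (standard error 0.32). The mutant replicates stood at 3.91-, 2.01- and 1.82-fold the AF16 mean. Without mutant replicate 1 the log2 fold change was 0.93, so that library moved the value more than any of the others. Fold changes as high or higher were found in 6.04% of tested genes, and for the ratio of mutant replicate 3 alone the share was 14.2%.

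Cbr-cbd-1.2 (WBGene00024873) is named for C. elegans cbd-1, which encodes a chitin-binding protein of the eggshell's outer layer. It was at 90.4, 19.1 and 20.5 CPM in mutant replicates 1, 2 and 3, against 37.9, 40.03 and 38.4 CPM in AF16 replicates 1, 2 and 3. Mutant replicate 1 was above all AF16 libraries and mutant replicates 2 and 3 were below all of them. The mean was 43.3 ± 40.8 CPM in the mutant and 38.8 ± 1.10 CPM in AF16 (SD, n = 3 each), so the spread in the mutant was nearly as large as its mean and the fitted log2 fold change of 0.16 had a standard error of 0.60. Taken apart, the mutant replicates stood at 2.33-, 0.492- and 0.529-fold the AF16 mean. Without mutant replicate 1 the log2 fold change was -0.98. Of all tested genes, 9.60% had mutant replicate 1 above and mutant replicates 2 and 3 below all AF16 libraries.

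Set out by the distance of mutant replicate 1 from the mean of mutant replicates 2 and 3, the 5 genes ran from Cbr-nos-1 (-0.10 on the log2 scale) over Cbr-cey-2.1 (0.24), then Cbr-gld-1 (0.75) and Cbr-pos-1 (1.03), to Cbr-cbd-1.2 (2.19). Replicate 1 was more than 2-fold above that mean in 11.2% of tested genes, and Cbr-pos-1 and Cbr-cbd-1.2 were among them. Mutant replicate 2 stood at 0.930- to 1.11-fold of mutant replicate 3 over the 5 genes.

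**Figure D2:**
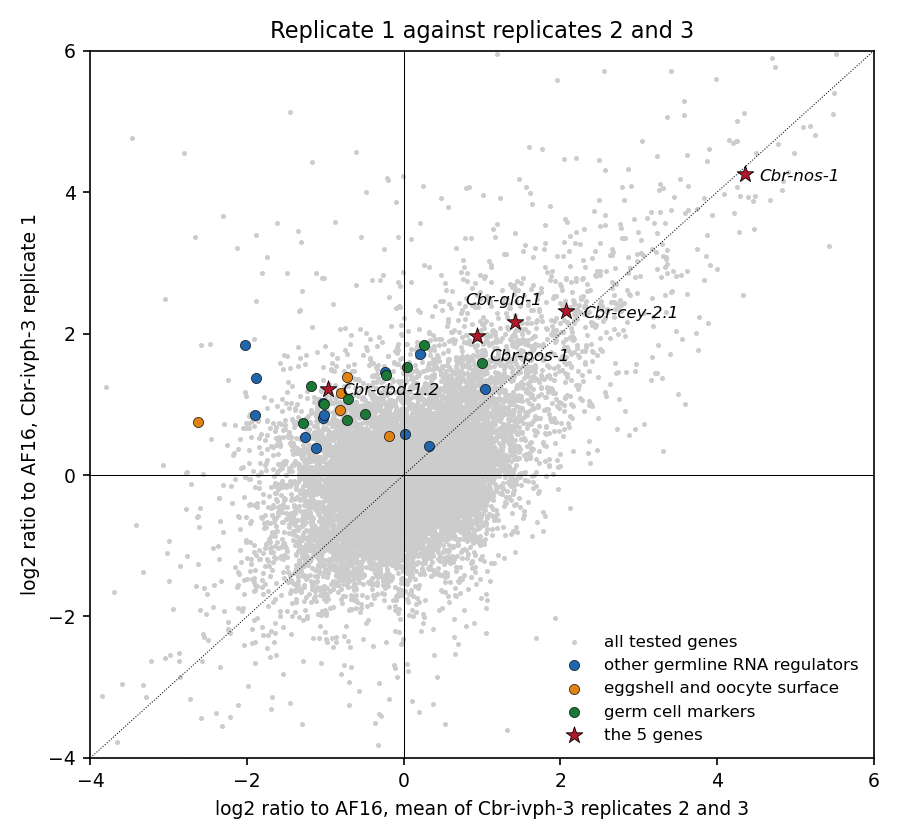
Log2 ratio to the AF16 mean in Cbr-ivph-3 replicate 1 (vertical axis) against the mean of Cbr-ivph-3 replicates 2 and 3 (horizontal axis) for 14191 tested genes in grey, with 34 genes beyond the axes and 16 with a 0 not drawn; stars are the 5 genes, coloured points are 13 other germline RNA regulators, 5 eggshell and oocyte surface genes and 10 germ cell markers, and the dotted line marks equal ratios. Cbr-nos-1 and Cbr-cey-2.1 lie near the dotted line, and Cbr-cbd-1.2 lies at upper left with most of the coloured points.

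A list of 13 other regulators of germline messenger RNA was read beside the 4 genes. They were matched by their C. elegans symbol, and came from genes that the study had called in mutants of Cbr-spr-4 or Cbr-htz-1. All 13 were tested, of which 1 was called higher, 0 were called lower and 12 did not pass. Over all tested genes 11.7% were called higher and 9.80% lower, and over those of the source of the list 18.7% and 14.9%. The list's share of higher calls, 7.69%, was below both, and with 1 gene called nothing is read from it. The median log2 fold change was 0.064 in the list and 0.058 over all tested genes. At an unadjusted p under 0.05, 2 were higher and 0 lower. DESeq2 and limma-voom each called 1 higher and 0 lower. The gene called higher was Cbr-puf-8, of the PUF family of translational repressors, at 60.1, 51.4 and 54.5 CPM in the mutant replicates, against 25.1, 25.7 and 26.7 CPM in AF16. Its log2 fold change was 1.10 (adjusted p = 0.002, edgeR's quasi-likelihood test). Like Cbr-cey-2.1 it was similar in all mutant libraries.

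The regulators differed among the mutant libraries. In mutant replicate 1 all 13 lay above all AF16 libraries, with a median log2 ratio of 0.85. In mutant replicate 2, 3 lay above and 8 below all AF16 libraries (median -1.09), and in mutant replicate 3, 3 lay above and 9 below (median -0.98). Cbr-cpb-1, a CPEB-family gene, was at 77.2, 5.49 and 5.18 CPM in the mutant replicates, against 19.2, 26.6 and 19.1 CPM in AF16. The CCCH zinc finger gene Cbr-oma-2 was at 17.7, 2.31 and 2.94 CPM in the mutant replicates, against 9.43, 11.1 and 8.84 CPM in AF16. In C. elegans gld-3 encodes a KH-domain partner of a cytoplasmic poly(A) polymerase, and here Cbr-gld-3 was at 56.6, 15.2 and 16.4 CPM in the mutant replicates, against 35.1, 30.2 and 31.7 CPM in AF16. For each of these 3 genes replicate 1 was above and replicates 2 and 3 were below every AF16 library. The pattern held for 8 of the 13, against 9.60% of all tested genes, and 10 of the 13 were more than 2-fold higher in replicate 1 than in the mean of replicates 2 and 3, against 11.2% of all tested genes. Over the 1361 tested genes of the source the list was drawn from, these shares were 15.3% and 19.1%.

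Among the regulators named by their smallest p, Cbr-moe-3, another CCCH zinc finger gene, and Cbr-cpb-3, of the CPEB family, had all mutant libraries above AF16 without passing (log2 fold changes of 0.35 and 0.90, adjusted p = 0.0855 and 0.179, edgeR's quasi-likelihood test). The PUF genes Cbr-puf-4 (0.56), Cbr-puf-1.1 (-0.43) and Cbr-puf-6.1 (-0.39), did not pass either. Without mutant replicate 1 the same test called 2 of the 13 higher and 8 lower, and the median log2 fold change was -1.04. The mutant spread then came from replicates 2 and 3 alone, which lay closer together than any pair of AF16 libraries. Counts of calls without mutant replicate 1 are therefore not comparable to those of the main fit. Over all tested genes that fit called 31.1% higher and 28.6% lower, and over those of the source of the list 32.7% and 37.7%.

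**Figure D3:**
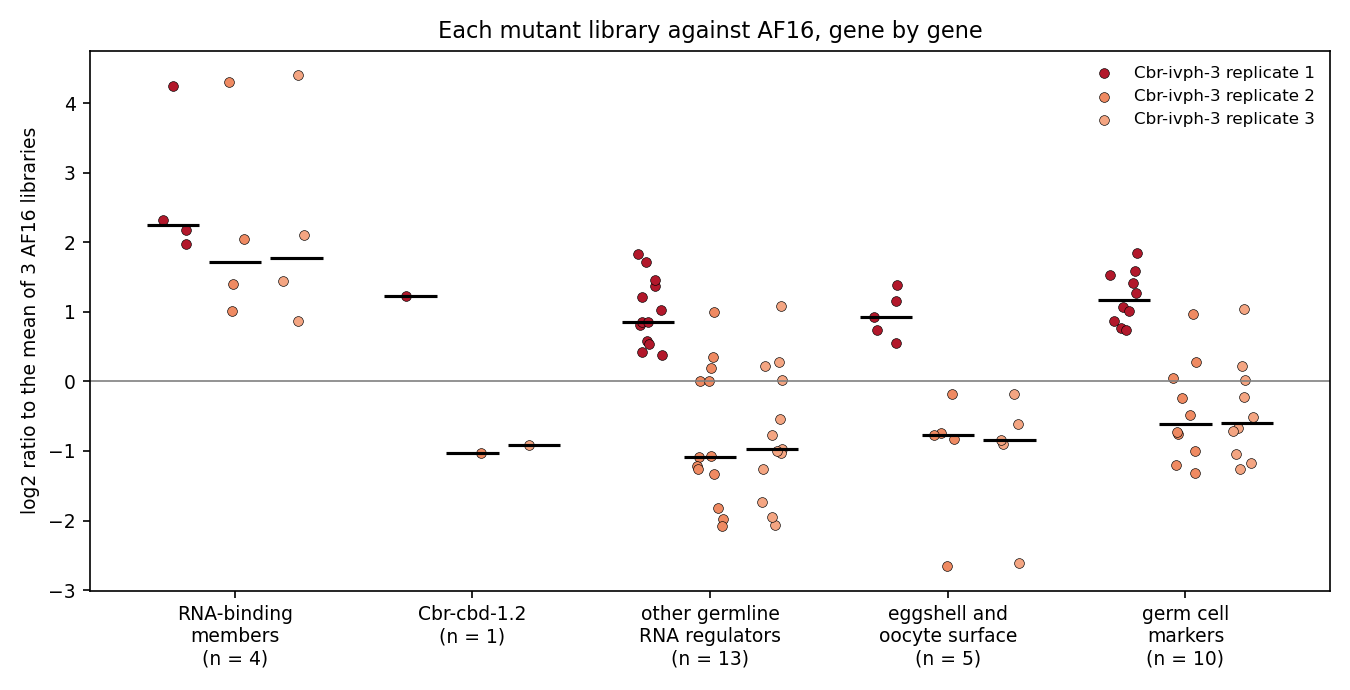
Log2 ratio of each Cbr-ivph-3 library to the mean of the 3 AF16 libraries, 1 point per gene, for the 4 RNA-binding genes, Cbr-cbd-1.2, 13 other germline RNA regulators, 5 eggshell and oocyte surface genes and 10 germ cell markers; black bars are medians and shades of red mark replicates 1 to 3. The 4 RNA-binding genes are above 0 in every mutant library, and the medians of the other lists are above 0 in replicate 1 and below 0 in replicates 2 and 3.

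Genes of the eggshell and the oocyte surface lay on both sides of AF16, as Cbr-cbd-1.2 did. The list held 5 tested genes besides it, drawn from the same source as the regulators. None of the 5 was called in the edgeR fit, none had an unadjusted p under 0.05, and DESeq2 and limma-voom called none, where 21.5% of all tested genes were called by edgeR in either direction. Of the genes from the same source, edgeR called 18.7% higher and 14.9% lower. All 5 lay above all AF16 libraries in mutant replicate 1 (median log2 ratio 0.92), and all 5 lay below all AF16 libraries in mutant replicates 2 and 3 (medians -0.77 and -0.84). This pattern was found in 9.60% of all tested genes and in 15.3% of those from the same source. Their summed level was 84.9, 20.4 and 20.7 CPM in the mutant replicates, against 41.9, 45.8 and 44.4 CPM in AF16. Cbr-cpg-1, for an eggshell chondroitin proteoglycan, was at 27.9, 2.65 and 2.75 CPM in the mutant replicates, against 14.8, 17.2 and 18.1 CPM in AF16. Cbr-rme-2, for the yolk receptor of the oocyte, was at 22.7, 4.89 and 5.69 CPM in the mutant replicates, against 9.61, 8.08 and 8.45 CPM in AF16. Cbr-egg-4 and Cbr-perm-1 had fitted log2 fold changes of 0.17 and 0.10. Without mutant replicate 1, 4 of the 5 were called lower, against 28.6% of all genes tested in that fit and 37.7% of those from the same source. The mutant spread in that fit again came from replicates 2 and 3 alone.

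Markers of germ cells as a whole also differed among the mutant libraries. The 10 tested markers were drawn from the same source as the regulators. Of these, 1 was called higher, 0 were called lower and 9 did not pass, with a median log2 fold change of 0.14. Over all tested genes 11.7% were called higher and 9.80% lower, and over those from the same source 18.7% and 14.9%. Their summed level was 827, 262 and 264 CPM in mutant replicates 1, 2 and 3, against 393, 376 and 393 CPM in AF16, so that mutant replicate 1 was above and mutant replicates 2 and 3 were below every AF16 library. A further 2 markers, Cbr-csr-1 and Cbr-syp-3, could be named only because the study had called them in this comparison, and were kept apart. These 2 summed to 557, 470 and 453 CPM in the mutant replicates, against 172, 169 and 171 CPM in AF16. With them in the sum, mutant replicates 2 and 3 would lie above AF16, so the position of the sum depends on the markers taken. Cbr-pgl-1, for a P granule protein, was at 248, 59.5 and 61.8 CPM in the mutant replicates, against 146, 140.4 and 158 CPM in AF16. Cbr-ego-1, for an RNA-directed RNA polymerase of the germline, had all mutant libraries above AF16 (168.7, 57.3 and 54.8 CPM, against 49.01, 44.1 and 47.99 CPM in AF16) and did not pass (adjusted p = 0.161, edgeR's quasi-likelihood test). The P granule helicase gene Cbr-glh-4 and the meiotic axis gene Cbr-htp-3 had fitted log2 fold changes of 0.11 and -0.04. Without mutant replicate 1, 2 of the 10 were called higher and 6 lower, against 31.1% and 28.6% of all genes tested in that fit and 32.7% and 37.7% of those from the same source. Here too the mutant spread came from replicates 2 and 3 alone.

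The level of each of the 5 genes was therefore also set over the summed level of these 10 markers in the same library, a ratio that needs no scaling between libraries. The markers kept apart are not in this sum, and with them every mutant ratio would be smaller relative to AF16. For Cbr-nos-1 it was 0.578%, 1.90% and 2.01% of the marker sum in mutant replicates 1, 2 and 3, against 0.0565%, 0.0712% and 0.0669% in AF16. For Cbr-gld-1 it was 47.7%, 88.4% and 90.2% in the mutant replicates, against 21.2%, 25.1% and 21.7% in AF16. On this measure too, both genes were higher in every mutant library than in any AF16 library. Mutant replicate 1 was the lowest of the mutant libraries for both, while in CPM it was the lowest for Cbr-nos-1 and the highest for Cbr-gld-1. Cbr-cey-2.1 stood at 42.3%, 111% and 115% of the marker sum in the mutant replicates, against 16.8%, 21.1% and 16.7% in AF16. Cbr-pos-1 stood at 3.16%, 5.13% and 4.601% in the mutant replicates, against 1.85%, 1.83% and 1.49% in AF16. Neither gene overlapped between genotypes. Cbr-cbd-1.2 stood at 10.9%, 7.29% and 7.78% in the mutant replicates, against 9.65%, 10.6% and 9.77% in AF16, so that its range among the mutant libraries was much narrower than in CPM. On this measure mutant replicate 1 was only just above the highest AF16 library (10.9% against 10.6%). That gap is smaller than the counting error of Cbr-cbd-1.2 in that AF16 library (37.5 to 42.7 CPM, exact 95% interval). With the markers kept apart added to the sum, replicate 1 would lie below AF16. The position of Cbr-cbd-1.2 on both sides of AF16 is therefore clear in CPM only.

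**Figure D4:**
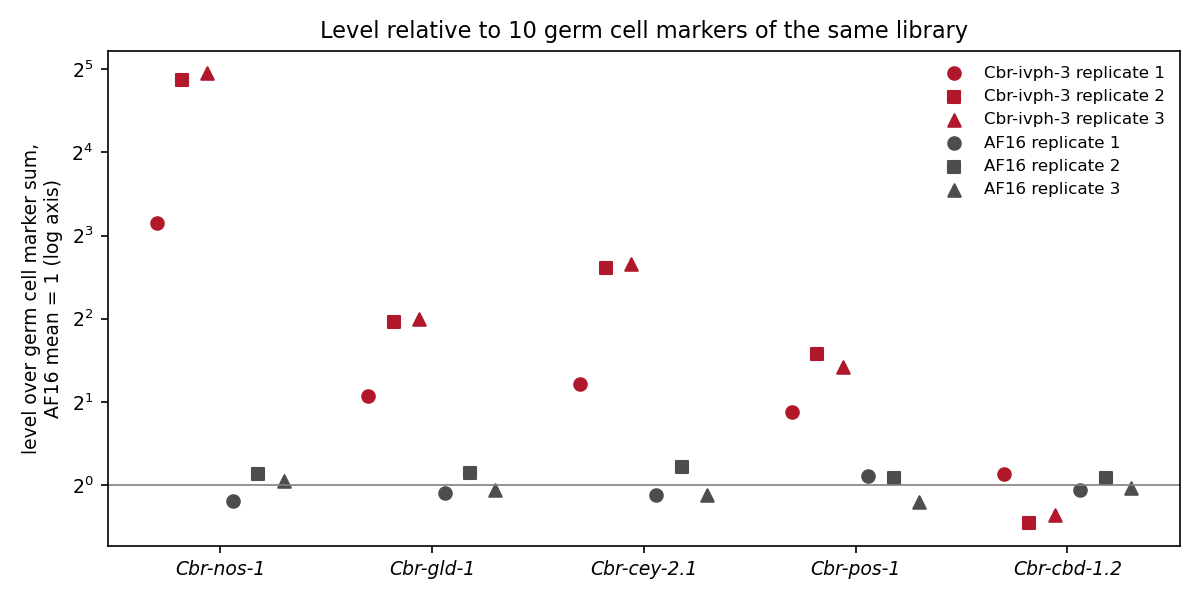
Level of each of the 5 genes over the summed level of 10 germ cell markers of the same library, divided by the AF16 mean of that ratio, on a log axis with base 2; red symbols are Cbr-ivph-3 replicates, grey symbols are AF16 replicates, and the line marks the AF16 mean. Cbr-nos-1 is 8.91-, 29.2- and 30.97-fold the AF16 mean in replicates 1, 2 and 3, while Cbr-cbd-1.2 is 1.09-, 0.727- and 0.776-fold. The sum leaves out the markers kept apart, with which these folds would be smaller.

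Genes beside the members on the chromosome were read where the RefSeq order gave a neighbour that could be paired with an identifier. Cbr-cey-2.1 lies between Cbr-him-3, for a meiotic chromosome axis protein, and Cbr-rmh-1. Cbr-him-3 was at 44.8, 29.1 and 30.6 CPM in the mutant replicates, against 14.4, 16.4 and 14.01 CPM in AF16. Among the 10 germ cell markers it was the only gene called higher (log2 fold change 1.22, adjusted p = 0.00732, edgeR's quasi-likelihood test), though not without AF16 replicate 1 or 3 (adjusted p = 0.0571 and 0.058). Cbr-rmh-1 was at 34.1, 19.97 and 21.5 CPM in the mutant replicates, against 12.5, 11.4 and 13.97 CPM in AF16, and was called higher as well (1.99-fold, adjusted p = 0.0256, same test), though not when any 1 AF16 library was left out (adjusted p = 0.0932 to 0.124). Both neighbours were thus above AF16 in every mutant library. Cbr-vha-18, beside Cbr-pos-1, was at 46.8, 37.4 and 39.9 CPM in the mutant replicates, against 13.8, 14.95 and 14.4 CPM in AF16. It is named for a subunit of the vacuolar proton ATPase and was called higher (log2 fold change 1.52, adjusted p = 9.62e-04, edgeR's quasi-likelihood test). CBG00304, beside Cbr-gld-1, went the other way, at 18.8, 16.2 and 18.3 CPM in the mutant replicates, against 24.1, 23.1 and 25.4 CPM in AF16. Its log2 fold change of -0.45 passed narrowly (adjusted p = 0.0414, same test), and it no longer passed with upper-quartile scaling (-0.36), library totals (-0.14), a replicate block (-0.45) or mutant replicates 2 and 3 summed (-0.42), or after removal of AF16 replicate 1, 2 or 3 or mutant replicate 2 or 3 (-0.51 to -0.39). Of the 10 neighbours by position, 5 could be paired with an identifier and all 5 of these passed the test. The pairs came from the study's lists of called genes, so the neighbours read here were selected for such a change, and the 5 unpaired ones were not analysed here.

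The genes with the most similar pattern were sought among 1824 tested genes with a symbol, by the root mean square difference of log2 CPM centred over the 6 libraries. Their identifiers came from the study's lists of genes called in Cbr-spr-4, Cbr-htz-1 or Cbr-ivph-3 mutants, so the search did not cover all tested genes. Cbr-fip-6, Cbr-lips-3, Cbr-syp-3, Cbr-lips-7, Cbr-lipl-1 and Cbr-vrp-1 below could be named only because the study had called them in this comparison. The nearest to Cbr-nos-1 were Cbr-nlp-34.1 (0.221), Cbr-fip-6 (0.224) and Cbr-parp-1 (0.343). The nearest to Cbr-gld-1 were Cbr-lips-3 (0.0858), Cbr-syp-3 (0.111) and Cbr-lips-7 (0.119). For Cbr-cey-2.1 they were Cbr-lipl-1 (0.0873), Cbr-vrp-1 (0.0931) and Cbr-pals-38 (0.120). These lists hold antimicrobial peptide and lipase-related genes beside Cbr-syp-3, of the synaptonemal complex, and Cbr-parp-1, for a poly(ADP-ribose) polymerase. For Cbr-pos-1 the nearest were Cbr-ptr-1 (0.120), Cbr-ceh-92 (0.139) and Cbr-bmk-1 (0.142). For Cbr-cbd-1.2 they were the cuticle collagen genes Cbr-dpy-13 (0.101) and Cbr-dpy-4 (0.111) and the helicase gene Cbr-him-6 (0.118). Cbr-dpy-13 was at 3133, 653 and 738 CPM in the mutant replicates, against 1355, 1694 and 1401 CPM in AF16, the same division of the mutant libraries as in Cbr-cbd-1.2.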

How the data were processed

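RNA from 3 Cbr-ivph-3(sy5216) and 3 AF16 samples was sequenced as paired ends. The authors deposited raw counts of fragments per gene, made on Galaxy with RNA STAR against the canonical genes of the C. briggsae WS279 release, and featureCounts over exons at a reverse-stranded setting, with chimeric fragments left out. MultiQC is also named in the submitters' processing notes. Tool versions were not given in the sources used here. The kit named in the labels (TruSeq RNA Sample Preparation Kit v2) does not mark strand, so a gene and an antisense partner cannot be told apart.

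Counts were fitted with edgeR 4.0.16 in R 4.3.3 (TMM scaling, filterByExpr, glmQLFit with robust estimation, glmQLFTest, genotype as the only term as in the study's own comparison), with Benjamini-Hochberg adjustment over 14241 genes and a threshold of 0.05. The script was tested on simulated independent libraries with the same relative spread for every gene. No simulated library stood apart as mutant replicate 1 does, so that test gives no error rate for the calls here. Alternatives were other scalings, other low-count filters, DESeq2 1.42.0, limma-voom (limma 3.58.1), a replicate block, each library left out in turn and, chosen after seeing the data, mutant replicates 2 and 3 summed. P-values measure the spread between libraries that the study describes as independent biological replicates. Without mutant replicate 1 the mutant spread is that between replicates 2 and 3, the closest pair of libraries. Standard errors of log2 fold changes are the size of the log2 fold change divided by the square root of the test's F statistic. Deviations of same-numbered libraries from their genotype means had correlations of 0.137, 0.157 and -0.0535, and not every pair was above 0.1, so libraries were treated as unpaired.

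The members and lists were chosen with earlier results of these data known. Identifiers were paired with symbols by the study's own gene tables, which were shortened here, so list counts cover only the whole blocks, those of genes called in Cbr-spr-4 or Cbr-htz-1 mutants. List genes found only among those called in Cbr-ivph-3 mutants were kept apart. Genes were named by rule: the members and their paralogues, Cbr-ivph-3, up to 10 regulators and up to 4 eggshell genes with the smallest p, the 4 germ cell markers with the highest CPM, and 3 nearest patterns for each member (mean of at least 1 CPM, prior count 0.5). Neighbours on the RefSeq map (CB4) and genes named beside these were added after values had been seen. No sequence or coordinate is given, since the map and the counts rest on builds that were not matched.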

Additional observations from a re-analysis of the deposited data

How the results depend on the processing

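The 4 RNA-binding genes kept their direction in every alternative run, with log2 fold changes of 4.17 to 4.61 for Cbr-nos-1, 1.41 to 2.01 for Cbr-gld-1, 2.06 to 2.47 for Cbr-cey-2.1 and 0.93 to 1.65 for Cbr-pos-1, while Cbr-cbd-1.2 ran from -0.98 to 0.51. Cbr-nos-1 had too few counts in AF16 to be fitted when at least 10 counts were asked of every library. Its AF16 level rests on few fragments, so its ratio is known only within a wide counting interval. Scaling by library totals moved the median of all tested genes from 0.06 to 0.37 and gave 4.61 for Cbr-nos-1 and 2.47 for Cbr-cey-2.1. With it 3 other regulators were called higher, where 3943 genes were called in all, against 3062 in the main fit.

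With 1 library left out, the number of called genes ran from 1240 to 8644, against 3062 with all 6, and the largest count was without mutant replicate 1. Leave-one-out counts of called genes were 1 to 2 higher and 0 to 8 lower among the regulators, 0 to 4 lower among the eggshell genes, and 0 to 2 higher and 0 to 6 lower among the germ cell markers. The largest of these counts came without mutant replicate 1, where the mutant spread rested on replicates 2 and 3 alone, the closest pair of libraries. That fit called 31.1% of all tested genes higher and 28.6% lower, and 32.7% and 37.7% of those from the source of the lists. Leave-one-out log2 fold changes were 4.17 to 4.32 for Cbr-nos-1, 0.93 to 1.57 for Cbr-pos-1 and -0.98 to 0.51 for Cbr-cbd-1.2. Without mutant replicate 1 the sign changed, and the test was passed, for Cbr-cpb-1 (leave-one-out range -2.03 to 0.93), Cbr-rme-2 (-0.72 to 0.70), Cbr-egg-4 (-0.81 to 0.50), Cbr-glh-4 (-0.51 to 0.34) and Cbr-vit-6 (-1.87 to 2.43). It also changed for Cbr-puf-4 (-0.27) and Cbr-perm-1 (-0.19), which passed in neither fit. Summing mutant replicates 2 and 3 left 1612 called genes. The cause of these shifts was not tested. With the replicate block 2336 genes were called, and the members stood at 4.30, 1.67, 2.16, 1.29 and -0.26, in the order in which they were described. Among named genes the block ended the calls of Cbr-fog-1 (0.53) and CBG00304 (-0.45), and the samples share only a number.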

Other observations

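Some germline RNA regulators could be named only because the study had called them in this same comparison, so their calls are no independent evidence and are given as values. Cbr-ife-1, for a germline form of the cap-binding factor eIF4E, was at 304, 409.6 and 430 CPM in mutant replicates 1, 2 and 3, against 194, 229.9 and 198 CPM in AF16 (log2 fold change 0.88, adjusted p = 0.0142, edgeR's quasi-likelihood test), a call lost in 5 of 15 alternatives. Cbr-fog-1, for a CPEB protein that in C. elegans directs germ cells to the sperm fate, had a log2 fold change of 0.55 (adjusted p = 0.0422, same test), which did not pass in 9 of 15 alternatives, the replicate block among them (0.53). The Y-box gene Cbr-cey-1 went the other way from Cbr-cey-2.1, at 335, 310.2 and 318 CPM in the mutant replicates, against 542, 560.2 and 533 CPM in AF16 (log2 fold change -0.76, adjusted p = 0.005, same test). Cbr-lin-41, for a TRIM-NHL protein of the heterochronic pathway and of oocytes in C. elegans, was at 95.8, 43.2 and 47.5 CPM in the mutant replicates, against 174, 120.5 and 162 CPM in AF16 (log2 fold change -1.29, adjusted p = 0.0367, same test). The call of Cbr-lin-41 was lost after removal of AF16 replicate 1, 2 or 3 or mutant replicate 2 or 3 (adjusted p = 0.0855 to 0.129). Cbr-etr-1 did not pass (log2 fold change -0.39, adjusted p = 0.0563), except in 3 of 15 alternatives (adjusted p = 0.0453 with DESeq2's size factors, 0.00274 with DESeq2 and 0.00547 without mutant replicate 1).

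From the same source, the small RNA gene Cbr-csr-1, for an Argonaute, and the synaptonemal complex gene Cbr-syp-3 had log2 fold changes of 1.52 and 1.62, and the eggshell gene Cbr-perm-3 had -0.82. Cbr-csr-1 and Cbr-syp-3 are the germ cell markers that were kept apart from the marker sum. Cbr-csr-1 was at 526, 447 and 432 CPM in mutant replicates 1, 2 and 3, against 165, 160.5 and 163 CPM in AF16.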
